A study of Mus musculus with 6 samples.

Results

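The genes described here encode the elastic fibre and its microfibril scaffold: Eln, Fbn1, Fbn2, Fbln1, Fbln2, Fbln5, Efemp1, Efemp2, Mfap4 and Mfap5. They were taken by symbol from the table of expression values, which held all 10 of them among 22984 genes. The libraries came from mesenchymal stem cells (BMSCs) grown from mouse bone marrow, which adhere to plastic and belong to the stroma, and the series' design text calls them O-BMSCs without expanding the prefix. There were 3 libraries labelled Grx2+/+ (wild type) and 3 labelled Grx2-/- (knockout), with no treatment or time point named for either. How the Grx2 allele was made, the strain, the age of the mice and whether replicates were separate animals or cultures are not stated in the labels. The p-values therefore measure only the spread between these libraries, which may be technical. The gene symbol of Grx2 is Glrx2. It encodes glutaredoxin 2, a mitochondrial enzyme that exchanges thiols and disulfides, and its 3 knockout libraries held 1, 0 and 0 reads against 756, 800 and 761 in wild type.

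Elastic fibres give skin, vessels, lung and ligament their recoil. Fibrillins are secreted and assemble into microfibrils, tropoelastin is deposited on that scaffold with the help of fibulins, and lysyl oxidases then crosslink it into elastin. Microfibrils also hold latent TGF-beta and BMP ligands, and in some tissues they occur without elastin.

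All values are FPKM, reads scaled to gene length and library depth, which puts genes and libraries on a common scale. Comparisons between libraries still depend on that scaling, and results under other scalings are given at the end. Whole reads recovered from the FPKM values put the depth at 40797879 to 41794919 reads per library. Of 10 mesenchymal stromal markers, 3 were higher in knockout, 6 lower and 1, Cxcl12, not called, and all but Lepr were above 1 FPKM in every library. Of all tested genes, 42.7% were called higher and 24.6% lower, the background for each count of markers here. Those that were higher were Ly6a (6.29-fold), Pdgfra (2.85-fold) and Cd44 (2.11-fold), and among the lower ones Lepr, a receptor of marrow stromal cells, went from 3.83 to 0.0351 FPKM. Testing needed a mean of at least 1 FPKM over the libraries. Lepr reached it only through its wild type values and so could only be lower. The libraries were not of 1 cell type. The summed FPKM of 8 macrophage markers was 1348 to 1492 in wild type and 2283 to 3093 in knockout, that of 8 neutrophil markers 882 to 2561 and 1.81 to 2.12, and that of 7 endothelial markers 18.2 to 21.7 and 2.87 to 3.05. Of these, Ly6g and Tie1 were at 0 in all knockout libraries. Of 5 tested endothelial markers, 4 were lower. These 4, Pecam1, Cdh5, Emcn and Kdr, were below 1 FPKM in every knockout library. They too were tested only because of their wild type values and so could only be lower. Vwf was not called (1.71 FPKM in wild type, 1.96 in knockout) and made up most of the endothelial sum in knockout. Tek, not tested, went from 0.265 to 0.609 FPKM. The 7 smooth muscle markers summed to 2652 to 2903 in wild type and 889.7 to 1441 in knockout. Among 6 osteoblast markers, all 5 that could be tested were lower in knockout: Spp1, which made up most of their sum, went from 1164 to 616 FPKM, while Alpl went from 106 to 3.66, Ibsp from 107 to 0.487 and Sp7 from 38.1 to 2.61 FPKM. Ibsp, below 1 FPKM in every knockout library, likewise could only be lower. In bulk RNA, fewer cells of a type and less RNA per cell cannot be told apart, and the part of these markers in the results below was not tested.

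Most elastic fibre genes were higher in knockout libraries. Elastin itself, Mfap4, Efemp1 and Mfap5 were 12.9-fold to 51.3-fold higher in knockout, Fbn2, Efemp2, Fbln5 and Fbln1 were 1.74-fold to 2.39-fold higher, the abundant Fbn1 was 1.19-fold higher, and the most abundant gene, Fbln2, was lower. The test was limma on log2(FPKM + 1), two-sided, with p-values adjusted over the 11083 genes that had a mean of at least 1 FPKM (Benjamini-Hochberg), and a gene is called at an adjusted p under 0.05. By this test 9 of the 10 genes were higher, where 42.7% of all tested genes were called higher, and 1 was lower, where 24.6% were called lower. At least 2-fold rises, on the log2(FPKM + 1) scale, were called for 5 of the 10, against 6.49% of all tested genes. The libraries of the genotypes did not overlap for any of the 10, but this held for 73.1% of all tested genes. The median log2 fold change was 1.02 for the 10 genes and 0.0855 for all tested genes. All 10 passed the filter on low values. Eln and Mfap4, below 1 FPKM in every wild type library, passed it only through their knockout values and so had to differ, and the other 8 genes comprised 7 that were higher, 3 of them at least 2-fold, and 1 that was lower, with a median of 0.87.

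**Figure D1:**
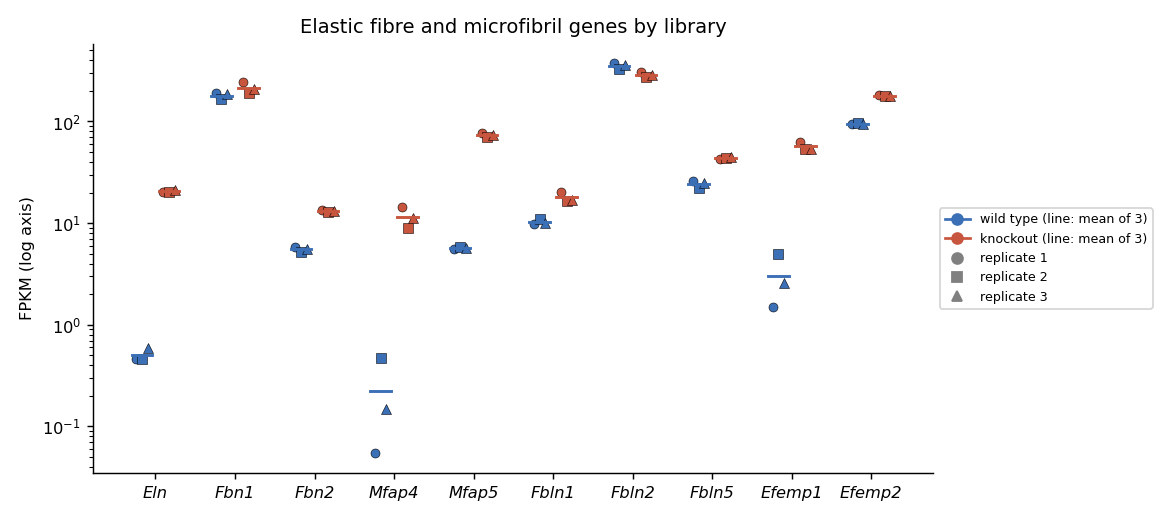
FPKM of the 10 genes (horizontal axis) in each of the 6 libraries, on a log axis, with wild type in blue, knockout in red, marker shape for the replicate number and a line at the mean of each group of 3. Wild type levels ran from 0.224 (Mfap4) to 352 FPKM (Fbln2), and knockout levels from 11.5 (Mfap4) to 289.8 FPKM (Fbln2).

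Eln encodes tropoelastin, the soluble monomer of elastin. It measured 0.456, 0.464 and 0.589 FPKM (74, 76 and 97 reads) across wild type replicates 1 to 3, while knockout replicates 1 to 3 gave 20.4, 20.4 and 21.3 FPKM (3393, 3343 and 3475 reads). Every knockout library was far above every wild type library, and the knockout libraries lay close together. The means were 0.503 ± 0.0745 FPKM in wild type and 20.7 ± 0.513 in knockout (SD, n = 3 each), a 41.2-fold difference, with a 95% interval from the reads of 36.3 to 46.9 from counting alone. On the log2(FPKM + 1) scale the fold change was 3.85 ± 0.055 (SE; adjusted p = 3.88e-09, limma). That scale understates the change of low genes: with a pseudocount of 0.01 the Eln value was 5.35.

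The fibrillins form the backbone of the microfibril, Fbn1 as the main form of adult tissue and Fbn2 as a form most prominent in development. Fbn2 measured 5.81, 5.14 and 5.58 FPKM across wild type replicates 1 to 3, while knockout replicates 1 to 3 gave 13.6, 12.8 and 13.2 FPKM. All knockout libraries were well above all wild type libraries, and the log2 fold change was 1.13 ± 0.052 (adjusted p = 6.46e-07, limma). Fbn1 measured 189, 165 and 186 FPKM across wild type replicates, while those of knockout gave 243, 192 and 207 FPKM. The highest wild type library and the lowest knockout library were close, and knockout replicate 1 stood above the other 2. Its log2 fold change was 0.25 ± 0.087 (adjusted p = 0.0357, limma), against 0.0855 for the median of all tested genes. This call did not hold under 10 of the 18 alternatives other than a 2-fold minimum (adjusted p from 0.00248 to 0.191 over them), among them median-of-ratios scaling (0.14, adjusted p = 0.191), quantile normalization (0.21, adjusted p = 0.1002) and the fits without wild type replicate 2 (0.19, adjusted p = 0.112), wild type replicate 3 (0.27, adjusted p = 0.06), knockout replicate 1 (0.15, adjusted p = 0.0677) or knockout replicate 3 (0.27, adjusted p = 0.0636), all by limma.

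Mfap4 and Mfap5 encode small glycoproteins that bind microfibrils. Mfap5 (MAGP-2) measured 5.6, 5.76 and 5.69 FPKM across wild type replicates 1 to 3, while knockout replicates 1 to 3 gave 77.5, 69.9 and 73.1 FPKM. The wild type libraries were nearly equal, and each knockout library was far above them. The log2 fold change was 3.48 ± 0.045 (adjusted p = 2.02e-09, limma), or 12.9-fold between the means of 5.68 ± 0.0776 and 73.5 ± 3.84 FPKM (SD, n = 3 each). Mfap4, a fibrinogen-related protein that binds fibrillin and elastin, measured 0.0542, 0.47 and 0.147 FPKM across wild type replicates 1 to 3, or 4, 35 and 11 reads. The knockout replicates gave 14.3, 8.88 and 11.2 FPKM, or 1084, 661 and 829 reads. Mfap4 was the gene of the 10 with the widest spread in both groups, with a coefficient of variation of 97.6% in wild type and 23.9% in knockout, yet the groups did not overlap. Its log2 fold change was 3.34 ± 0.17 (adjusted p = 1.17e-06, limma) and 6.06 with a pseudocount of 0.01, and the means differed 51.3-fold (38.8 to 69.2, counting error only). That fold rests on the wild type libraries: without wild type replicate 2 the wild type mean was 0.101 FPKM and the fold 114, and without any other 1 library the fold was 37.2 to 57.1. Exons of Mfap4 overlap those of Mapk7 on the opposite strand in the GENCODE M21 annotation of GRCm38, and the strand setting of the counting is not stated, so reads of Mfap4 and Mapk7 (means of 8.07 FPKM for wild type, 7.54 for knockout) cannot be told apart there. Eln, Fbn1 and Fbn2 overlap predicted genes on the opposite strand in the same way.

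Efemp1 (fibulin-3) and Efemp2 (fibulin-4) are short fibulins. Efemp2 binds tropoelastin and lysyl oxidase and is needed for elastic fibre assembly. Efemp1 measured 1.51, 4.92 and 2.6 FPKM across wild type replicates 1 to 3, while knockout replicates 1 to 3 gave 63.5, 53.5 and 53.3 FPKM. Wild type replicate 2 was above the other 2, but no wild type library came near the knockout range. The log2 fold change was 3.93 ± 0.27 (adjusted p = 5.16e-06, limma) and 4.26 without wild type replicate 2, and the means of 3.01 ± 1.74 and 56.7 ± 5.81 FPKM differed 18.8-fold (27.6-fold without wild type replicate 2). Efemp2 measured 94.0, 97.3 and 94.4 FPKM across wild type replicates, while those of knockout gave 183, 177 and 178 FPKM. It was the steadiest of the 10 genes within knockout and among the steadiest in wild type (coefficients of variation of 1.82% and 1.86%), and its log2 fold change was 0.91 ± 0.031 (adjusted p = 1.3e-07, limma). Efemp2 overlaps Mus81 on the opposite strand in the same annotation, whose means were 6.26 FPKM for wild type and 4.27 for knockout.

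Fbln5 links tropoelastin to microfibrils and to integrins on the cell surface. It measured 25.8, 22.1 and 25.1 FPKM across wild type replicates 1 to 3, while knockout replicates 1 to 3 gave 42.8, 44.1 and 44.4 FPKM. All knockout libraries were above all wild type libraries, and the log2 fold change was 0.83 ± 0.057 (adjusted p = 6.04e-06, limma). Fbln1, a long fibulin of elastic fibres and basement membranes, measured 9.85, 11.1 and 9.95 FPKM across wild type replicates, while those of knockout gave 20.1, 16.6 and 17.03 FPKM. Knockout replicate 1 was its highest library, and the log2 fold change was 0.74 ± 0.077 (adjusted p = 6.51e-05, limma).

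Fbln2, a long fibulin found with fibrillin microfibrils and in basement membranes, went the other way. It measured 372, 328 and 357 FPKM across wild type replicates 1 to 3, while knockout replicates 1 to 3 gave 305, 275 and 289 FPKM. The lowest wild type library was above the highest knockout library, and the log2 fold change was -0.28 ± 0.056 (adjusted p = 0.00256, limma). The call and its direction held under the 18 alternatives, with values from -0.38 to -0.24. Fbln2 nevertheless had the highest level of the 10 genes in both genotypes.

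**Figure D2:**
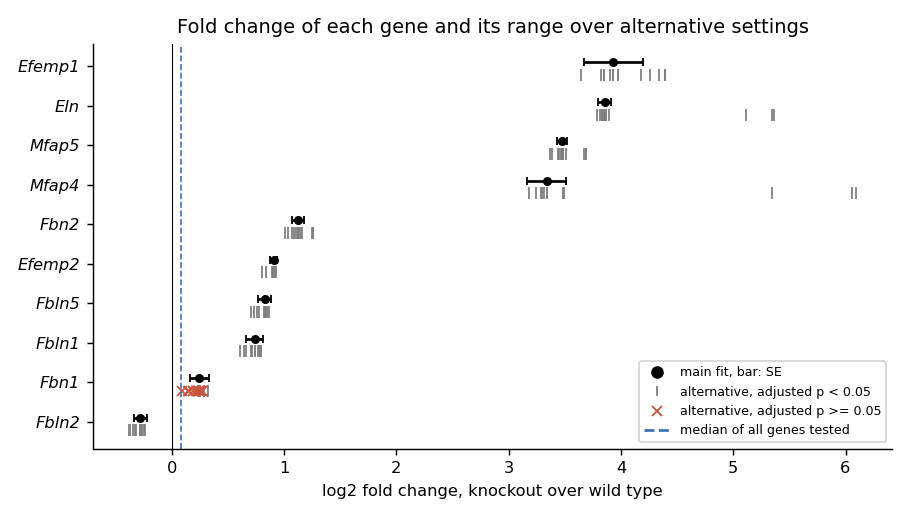
Log2 fold change of each gene, knockout over wild type (horizontal axis), with the SE as a bar, and below it the values under the alternative fits. Grey ticks had an adjusted p under 0.05 and red crosses did not, and only Fbn1 has crosses. The 3 rightmost ticks of Eln and Mfap4, up to 5.36 and 6.09, are the fits with smaller pseudocounts and the fit on reads.

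The order of levels, which FPKM sets per length, also differed between the genotypes. In wild type it was Fbln2, Fbn1, Efemp2, Fbln5, Fbln1, Mfap5, Fbn2, Efemp1, Eln and Mfap4. The library ranges of Mfap5 and Fbn2 overlapped there, as did those of Eln and Mfap4, while the other neighbours did not overlap. In knockout the first 3 places were unchanged, followed by Mfap5, Efemp1, Fbln5, Eln, Fbln1, Fbn2 and Mfap4, and the ranges of Fbn2 and Mfap4 overlapped. Eln had a higher mean than 48.2% of all genes in the table in wild type and than 86.9% in knockout. The 10 genes summed to 640 to 704 FPKM in the wild type libraries and 871 to 984 in the knockout libraries.

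Ratios of related genes within a library show unequal change without depending on the scaling of that library. The 5 pairs were chosen after their values were seen. Per length, Fbn2 was at 0.0308, 0.0312 and 0.03 of Fbn1 in wild type replicates 1 to 3 and at 0.0558, 0.0665 and 0.064 in knockout replicates 1 to 3. Even in knockout, then, Fbn1 was the main fibrillin transcript. Efemp1 was at 0.0161 to 0.0506 of Efemp2 in wild type and at 0.299 to 0.346 in knockout, and Fbln5 was at 0.0673 to 0.0702 of Fbln2 and at 0.14 to 0.16. Mfap5 was at 0.523 to 0.59 of Mfap2, which encodes its relative MAGP-1, in wild type and at 4.61 to 5.7 in knockout, so the more abundant of this pair was Mfap2 in every wild type library and Mfap5 in every knockout library. Eln was at 0.000386 to 0.000499 of Lox, lysyl oxidase, in wild type and at 0.0161 to 0.0172 in knockout. The groups did not overlap for any of the 5 ratios. With 3 libraries against 3, the two-sided exact permutation test cannot go below p = 0.1, which each ratio reached (0.1 also after Benjamini-Hochberg adjustment over the 5).

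**Figure D3:**
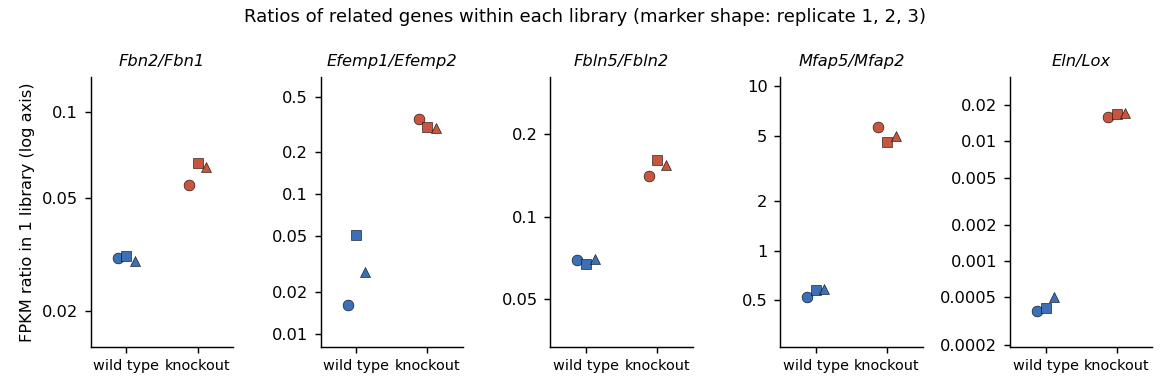
FPKM ratio of 5 pairs of related genes in each library (log axes, each with its own range), wild type in blue and knockout in red. In each panel the 3 knockout libraries lie above the 3 wild type libraries, and wild type replicate 2 is the highest of its group for Efemp1 over Efemp2 (0.0506).

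Single libraries differed in a way that the genotypes do not explain. Knockout replicate 1 had the highest value of its group for 8 of the 10 genes, all but Eln and Fbln5. It also had the lowest summed smooth muscle markers of its group (889.7 FPKM, against 1441 and 1282) and the lowest summed macrophage markers (2283 FPKM, against 3093 and 2786). In wild type, replicate 2 was lowest for Fbn1, Fbn2, Fbln2 and Fbln5 and highest for Fbln1, Efemp1, Efemp2, Mfap4 and Mfap5. Efemp1 and Mfap4 had the order replicate 2, 3 and 1 from highest to lowest in wild type, as did the summed markers of neutrophils (2561, 1404 and 882 FPKM), macrophages (1492, 1369 and 1348), osteoblasts (1519, 1410 and 1352) and fascial fibroblasts (8.47, 7.06 and 6.25). Lyz2 (1283, 1161 and 1141 FPKM in that order) made up most of the macrophage sum, and Spp1 (1272, 1141 and 1078) most of the osteoblast sum. The macrophage markers Adgre1, Cd68 and Csf1r and the osteoblast markers Alpl, Ibsp and Sp7 were instead lowest in wild type replicate 2. Itgam, Ptprc, Mrc1 and Runx2 were highest in wild type replicate 2. Between genotypes the neutrophil and osteoblast sums were lower in knockout, and the macrophage and fascial fibroblast sums were higher, as were Efemp1 and Mfap4. The part of these markers in the levels of Efemp1 and Mfap4 was not tested. Without wild type replicate 2 and knockout replicate 1 together, 8 genes were higher and 1 lower, and Fbn1 was no longer called (0.091 ± 0.039, adjusted p = 0.0706, limma).

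Promoter sequence was available in the RefSeq table (GRCm38.p6, another build than the GRCm39 of the submitters' notes) for 6 of the genes, with 10 annotated starts. Entries for Eln, Fbn2, Mfap4 and Mfap5 were not used. The 250 bases before the start are shown for the gene with the largest rise among the 6 (Efemp1), the one that was lower (Fbln2) and the one with the smallest rise (Fbn1), 5′ to 3′ on the strand of the gene, with every match to 6 motifs in capitals. They lie at chr11:28852955-28853204 on the + strand, chr6:91212514-91212763 on the + strand and chr2:125506439-125506688 on the - strand.
Efemp1: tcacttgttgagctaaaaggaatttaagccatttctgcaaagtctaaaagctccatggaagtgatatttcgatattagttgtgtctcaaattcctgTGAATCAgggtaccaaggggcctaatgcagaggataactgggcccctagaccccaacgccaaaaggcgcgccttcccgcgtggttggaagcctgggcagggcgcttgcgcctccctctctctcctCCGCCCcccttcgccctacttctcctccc
Fbln2: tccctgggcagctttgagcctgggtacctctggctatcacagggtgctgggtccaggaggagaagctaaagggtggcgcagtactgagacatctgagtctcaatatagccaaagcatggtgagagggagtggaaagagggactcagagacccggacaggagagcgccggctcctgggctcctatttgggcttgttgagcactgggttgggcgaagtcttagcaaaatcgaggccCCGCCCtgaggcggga
Fbn1: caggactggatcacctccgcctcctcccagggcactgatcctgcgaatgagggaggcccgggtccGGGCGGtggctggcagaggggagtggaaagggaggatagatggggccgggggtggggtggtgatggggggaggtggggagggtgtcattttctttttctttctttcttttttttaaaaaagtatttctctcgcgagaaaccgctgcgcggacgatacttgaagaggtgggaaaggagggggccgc

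The motifs were searched on both strands: the TATA box TATAAA, the GC box GGGCGG, the CCAAT box CCAAT, the AP-1-like pattern TGANTCA, the core of the antioxidant response element TGACNNNGC and the TEAD site GGAATG. Each of the 3 sequences held 1 GC box, which for Efemp1 and Fbln2 reads as the complement within 30 bases of the start. A GC box was found in at least 1 entry of each of the 6 genes and in 8 of the 10 entries, against 32.7% of the 32851 entries of all genes. Some windows of Efemp2 overlap and share boxes, so the 10 entries are not independent. The 32.7% is a share of entries, not of genes. The Efemp1 sequence also held 1 match to the AP-1-like pattern TGANTCA, in which N is any base, from 154 to 148 bases before the start. It read TGAATCA, and 6.75% of all entries had a match to this loose pattern. No TATA box, antioxidant response element core or TEAD site was in any of the 10 windows, where 12.4%, 10.2% and 12.6% of all entries had one. A match says only that the letters are there, and no match only that they are not in this window.

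The enzymes and partners of the fibre moved in both directions. Of 97 related genes in 8 lists, 79 could be tested, of which 27 were higher, 37 lower and 15 not called, with a median log2 fold change of -0.10. The shares were 34.2% higher and 46.8% lower, against 42.7% and 24.6% of all tested genes (16 were below the filter and 2 were not used here). Of the 6 crosslinking genes, 0 were higher, 3 lower and 3 not called (median -0.14). Lox, the main elastin crosslinker, measured 1182, 1138 and 1179 FPKM across wild type replicates, while those of knockout gave 1268, 1207 and 1239 FPKM (0.086 ± 0.034, adjusted p = 0.0553, limma), a value near the median of all genes whose sign turned with median-of-ratios scaling (-0.016) and which was called in 5 other fits. Loxl1, which acts with Fbln5 on elastic fibres, had 0.087 ± 0.048 (adjusted p = 0.143, limma), with -0.014 under median-of-ratios scaling and -0.035 under quantile normalization. Loxl3 fell from 67.0 ± 3.91 to 29.4 ± 0.792 FPKM, Loxl2 fell from 210 ± 17.3 to 23.5 ± 0.862 FPKM, and Loxl4 had -0.21. Lox, Loxl1 and, below, Mfap2, Ltbp4, Emilin1, Itgav, Itgb5, Itga8, Neu1, Ctss, Ctsl, Mmp12, Prtn3 and Ctsg were named after their values were seen.

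Of 16 tested other proteins of microfibrils and elastin, 8 were higher, 5 lower and 3 not called (median 0.23). These shares, 50% and 31.2%, were near the 42.7% and 24.6% of all tested genes. Fbln7, among the higher ones, was below 1 FPKM in every wild type library and so could only be higher. Ltbp2, which binds fibrillin, averaged 21.9 ± 2.85 FPKM for wild type and 90.1 ± 3.47 for knockout (2.00 ± 0.082, adjusted p = 3.24e-07, limma), and Ltbp4, a latent TGF-beta binding protein that takes part in elastin deposition, went from 2.14 to 9.7 FPKM. Ltbp1, which anchors latent TGF-beta to the matrix, fell from 41.9 ± 0.538 to 23.2 ± 0.456 FPKM. Dcn, decorin, rose (3.57), Mfap2 rose (0.48 ± 0.056), and Npnt, an integrin ligand, and Emilin1, found between elastin and microfibrils, fell (-1.73 and -0.65). Of 7 tested ADAMTS and ADAMTS-like genes, 4 were higher (57.1%, against 42.7% of all tested genes), 2 lower (28.6%, against 24.6%) and 1 not called (median 0.66). Adamtsl1 and Adamtsl3 rose (1.22 and 1.15), while Adamts6, a protease acting on microfibril proteins, and Thsd4, which encodes ADAMTSL6 and binds fibrillin-1, fell (-1.22 and -1.62). Adamts6 and Thsd4, the 2 lower genes of this list, were below 1 FPKM in every knockout library. They passed the filter only through their wild type values and so could only be lower.

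**Figure D4:**
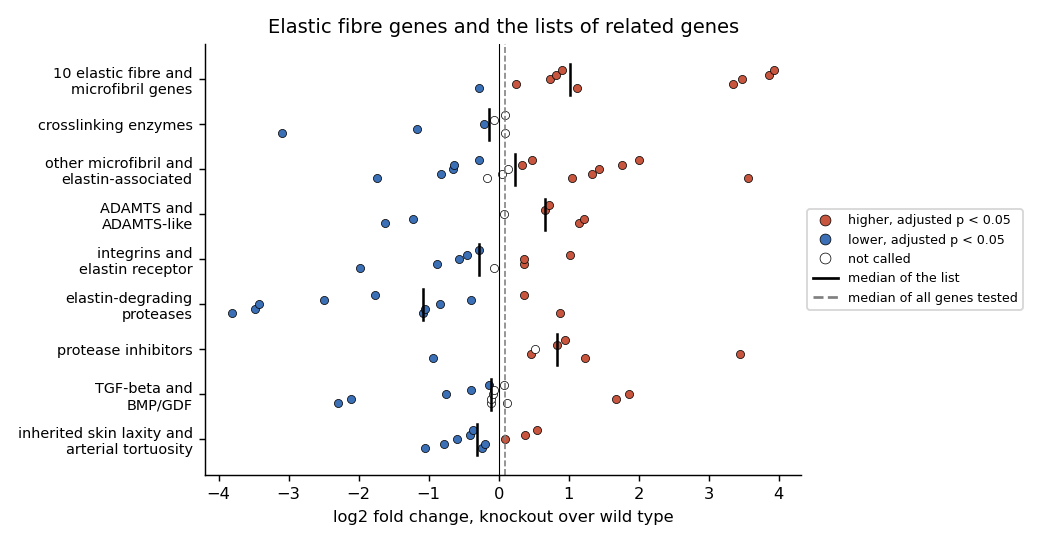
Log2 fold change, knockout over wild type, of the 10 genes and of the tested genes of 8 related lists, each point 1 gene, red for higher, blue for lower and white for not called, with a black line at the median of the list and a dashed line at that of all tested genes. The medians run from -1.08 for elastin-degrading proteases to 1.02 for the 10 genes.

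Of 9 tested genes for integrins and subunits of the elastin receptor, 3 were higher (33.3%, against 42.7% of all tested genes), 5 lower (55.6%, against 24.6%) and 1 not called (median -0.28). Itgb3 averaged 12.7 ± 1.05 FPKM for wild type and 2.47 ± 0.19 for knockout (-1.98 ± 0.071, adjusted p = 1.79e-07, limma), Itga5 and Itgb1 had -0.88 and -0.57, and Itgav and Itgb5 had -0.28 and -0.45. The integrin gene that rose was Itga8, from 0.486 to 2.03 FPKM (1.02), and Ctsa and Neu1, the other subunits of the elastin receptor complex besides Glb1, rose as well (0.37 each). Itga8 was below 1 FPKM in every wild type library. It passed the filter only through its knockout values and so could only be higher. Of 13 tested TGF-beta and BMP genes, 2 were higher (15.4%, against 42.7% of all tested genes), 5 lower (38.5%, against 24.6%) and 6 not called (median -0.10). Under quantile normalization, and likewise with median-of-ratios scaling, 9 of them were lower. Bmp4 and the coreceptor gene Tgfbr3 rose (1.87 and 1.67), and Tgfb2 and Bmp5 fell (-2.10 and -2.29). Bmp5 was below 1 FPKM in every knockout library, passed the filter only through wild type and so could only be lower.

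Of 11 tested proteases that can degrade elastin, 2 were higher (18.2%, against 42.7% of all tested genes), 9 lower (81.8%, against 24.6%) and 0 not called (median -1.08). The stromal proteases Htra1 and Mmp2 fell from 137 ± 10.8 to 39.5 ± 3.11 FPKM and from 262 ± 9.32 to 124 ± 8.76 FPKM. Elane, neutrophil elastase, was at 10.6, 19.2 and 10.9 FPKM across wild type replicates and at most 0.03 FPKM in knockout (-3.80 ± 0.19, adjusted p = 1.02e-06, limma). Prtn3 (-3.42) and Ctsg (-2.49) are also neutrophil granule proteases, and the 7 tested neutrophil markers, Elane among them, were all lower. Mmp9 fell (-3.47). Elane, Prtn3, Ctsg and Mmp9 were below 1 FPKM in every knockout library. They passed the filter only through their wild type values and so could only be lower, and the 81.8% and the median of -1.08 include them. The same limit held for the neutrophil markers S100a9, Ngp, Ltf, Camp and Mpo. The other tested proteases were above 1 FPKM in every library. The proteases that were higher were the cathepsin genes Ctss (0.87) and Ctsl (0.36). Mmp12, macrophage metalloelastase, fell from 16.8 to 7.7 FPKM (-1.05), while all 8 macrophage markers were higher, and their part in these values was not tested. Of 7 tested protease inhibitors, 5 were higher (71.4%, against 42.7% of all tested genes), 1 lower (14.3%, against 24.6%) and 1 not called (median 0.83). Timp2 (0.83), Cst3 (1.23) and Serpina3n (3.44) rose, and Timp3 (-0.93), a matrix-bound inhibitor, fell. Another list held 10 genes that underlie inherited skin laxity or arterial tortuosity, of secretion, the Golgi, proline synthesis or endosomes. Of these, 3 were higher (30%, against 42.7% of all tested genes), 7 lower (70%, against 24.6%) and 0 not called (median -0.30). Fkbp10, a collagen chaperone, averaged 258 ± 8.8 FPKM for wild type and 125 ± 1.26 for knockout, Aldh18a1, of proline synthesis, and the transporter gene Slc2a10 had -0.60 and -0.78, and Atp6v1a, a proton pump subunit, rose (0.54).

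The genes with the profile most like that of Eln over the 6 libraries, by Euclidean distance between mean-centred log2(FPKM + 1) values, were Prelp, Nptx1, Npy, Thy1 and Igfbp2. Their distances were 0.242, 0.262, 0.296, 0.37 and 0.46, and with 6 libraries in 2 groups such a distance mostly reflects the difference between the genotypes. Prelp, a leucine-rich proteoglycan of matrix, averaged 5.97 FPKM for wild type and 107 for knockout, and Nptx1, a secreted pentraxin, averaged 0.469 and 21.1 FPKM. The distance depends on the added 1, which understates the change of low genes such as Eln. The means of Eln differed 41.2-fold, those of Nptx1 44.9-fold, Igfbp2 25.4-fold, Prelp 17.9-fold, Npy 16.0-fold and Thy1 14.1-fold.

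The 6 markers of fascial and adventitial fibroblasts, cells known for elastic fibre genes, summed to 6.25 to 8.47 FPKM in wild type and 49.5 to 55.8 in knockout. All 4 that could be tested were higher, Dpt (2.88), Cd34 (1.93), Clec3b (2.23) and Col14a1 (3.26), while Pi16 and Dpp4 were at most 0.49 FPKM in every library. Dpt, Clec3b and Col14a1 were below 1 FPKM in every wild type library. They passed the filter only through their knockout values and so had to differ. Of the 5 tendon markers, 2 were higher and 3 lower. Of all tested genes, 42.7% were called higher and 24.6% lower. The part of these markers in the rise of Eln, Mfap4, Mfap5 and Efemp1 was not tested.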

How the data were processed

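RNA of 6 libraries, 3 wild type and 3 knockout, was grouped by the labelled genotype. The submitters' processing notes name HTSeq, HISAT2, R 3.2.0 and the build GRCm39. Versions of the aligner and counter, annotation, filters and strand setting were not stated there. The authors deposited FPKM values, 1 column per library, and they were used as deposited. Whole reads could be recovered from the steps of the values for all 22984 genes within 1e-05 reads (listed genes held 99.7% to 99.8% of the depth), so counting error is small except for Eln and Mfap4 in wild type.

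Genes averaging 1 FPKM or more were fitted together with limma 3.58.1 in R 4.3.3 (lmFit, eBayes with trend) on log2(FPKM + 1), knockout against wild type, and adjusted by Benjamini-Hochberg. The script was tested on simulated data. Intervals of read ratios are exact conditional binomial at 95%. The deposited values are FPKM, for which limma on a log scale was chosen, so count tests were not used as the main test. Named genes are Glrx2, the 10 genes, up to 4 called genes per list with the smallest p and no overlap, and the 5 genes nearest to Eln. The genes, lists and markers were chosen with earlier results of these data known. Alternatives were quantile normalization, scaling by median of ratios, robust estimation (statmod 1.5.0), no trend, pseudocounts of 0.1 and 0.01, a filter at 5 FPKM or none, a block for replicate number, leaving out each library or 2 together, adjusted p under 0.01 and a 2-fold minimum. voom on the recovered reads was added after seeing the data. Figures were drawn with matplotlib 3.10.9.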

Additional observations from a re-analysis of the deposited data

How the results depend on the processing

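Of the 10 genes, 9 kept their direction and call under the 18 alternatives other than a 2-fold minimum, and Fbn1 kept its direction but was called in 8 of them. The number of genes of the 10 called higher ran from 8 to 9 with 1 library left out, and 1 was lower each time. With a 2-fold minimum, all genes had 719 higher and 392 lower, the 10 genes 5 and 0, and the related lists 13 and 16. Calls over all genes split 4737 higher and 2728 lower (63.5% higher), 3699 and 3670 with median-of-ratios scaling (50.2%), and 3413 and 3945 with quantile normalization (46.4%), which moved the median of all genes from 0.0855 to -0.026. Lox had -0.016 and Loxl1 -0.014 with median-of-ratios scaling, and Loxl1 had -0.035 with quantile normalization. In the related lists, crosslinking genes had 1 higher in 5 fits, and with a mean of at least 5 the ADAMTS list had 0 lower and the TGF-beta list 3.

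With the replicate number as a block, 9 genes of the 10 were higher and 1 lower, and over all genes 4771 were higher and 2791 lower. Same-numbered libraries had correlations of their deviations from the group means of 0.107, 0.124 and 0.0199. Those of differently numbered libraries ran from -0.129 to 0.0598. Wild type replicate 3 and knockout replicate 3 each correlated best with a library of another number, and the remaining libraries with their own. So few correlations cannot settle whether a shared number marks a pairing. Depth limits Mfap4 most, with 4 reads in wild type replicate 1.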
